A study of Mus musculus with 6 samples.

Results

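The fibroblast growth factor (FGF), platelet-derived growth factor (PDGF), vascular endothelial growth factor (VEGF) and insulin-like growth factor (IGF) systems, with hepatocyte growth factor (HGF) and its receptor MET, were followed in RNA sequencing of whole mouse thymus. Members were chosen by gene symbol, as names beginning with Fgf, Pdgf, Vegf or Igf followed by a number or a family letter, plus Hgf, Met and Pgf, with at least 10 reads over the 6 libraries. By name 60 of 24054 genes matched, and 58 reached the read minimum while Fgf6 and Fgf8 did not. The 3 tested libraries came from K5-rtTA:TetO-RANKL mice (RANKL below), which carry a pair of transgenes: a doxycycline-dependent activator under the keratin 5 promoter, a promoter of basal epithelial cells, and a RANKL gene that this activator switches on. The 3 control libraries came from mice described as carrying a single transgene. Both groups received doxycycline in food and water, and the labels give the schedule in conflicting ways, as 1 week from an age of 8 weeks in one text and 2 weeks from 9 weeks in another. Strain and sex are not stated in the labels.

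These growth factors are secreted proteins that bind receptor tyrosine kinases on neighbouring cells. FGFs of the paracrine kind, such as Fgf7 and Fgf10, pass from mesenchyme to epithelium and sustain thymic epithelial growth during development, whereas Fgf15, Fgf21 and Fgf23 travel as hormones and need a Klotho co-receptor. PDGFs act mainly on fibroblasts and pericytes, VEGFs on blood and lymphatic endothelium, and HGF on epithelium through MET. IGFs act on most cells, and a family of IGF-binding proteins carries them and limits their access to the receptor.

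Libraries held between 18254870 and 25357060 counted reads. Tnfsf11, which encodes RANKL, was at 3334, 4812 and 2390 CPM (read counts scaled to library size with TMM composition factors) in RANKL libraries and at 6.01, 6.34 and 8.89 CPM in control libraries, so the labels and the targeted gene matched. Reads of the transgene and of the mouse's own Tnfsf11 gene are not separated in the table. All 12 markers of double-positive thymocytes, the main cell of a normal thymus, fell, summing to 308 to 1220 CPM in RANKL libraries against 11788 to 13605 CPM in control libraries, and among RANKL libraries replicate 3 had the highest sum. Cortical epithelial markers also fell, in 7 of 7 genes, and summed to 166 to 404 CPM in RANKL against 2315 to 2905 CPM in control. Neutrophil markers rose in 7 of 7 genes and summed to 1905 to 4484 CPM in RANKL against 15.8 to 44.4 CPM in control, and cornified keratinocyte markers rose in 9 of 9. Fibroblast markers summed to 4456 to 8207 CPM in RANKL against 1838 to 2166.4 CPM in control, medullary and basal epithelial markers to 4330 to 5711 against 561 to 698 CPM, and macrophage markers to 1571 to 2220 against 484 to 666 CPM. Pericyte and smooth muscle markers summed to 442 to 593 CPM in RANKL and 219 to 328 CPM in control, blood endothelial markers to 378 to 485 and 238 to 285 CPM, and lymphatic markers to 124 to 159 and 21.02 to 26.3 CPM, with Ccl21a listed at 0 reads in all libraries. Pdpn, which is on both the fibroblast and the lymphatic list, averaged 106 of the 137 CPM of the lymphatic sum in RANKL and 17.5 of 24.1 CPM in control. Of the fibroblast list Thy1, which thymocytes also make, was the only gene that fell. In bulk tissue a different number of cells of a type and a different amount of RNA per cell cannot be told apart, and the part these shifts in makeup had in the values below was not tested.

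Of the 58 members, 53 passed the filter on low counts and were tested. With edgeR's quasi-likelihood test and Benjamini-Hochberg adjustment over all 16096 genes tested, 36 members rose, 5 fell and 12 were not called at an adjusted p of 0.05. Across all genes tested 33.8% rose and 29.6% fell, so 63.4% were called. The share of tested members that rose was 67.9%. The median log2 fold change was 2.04 over the tested members and -0.02 over all genes tested. The 5 members not tested were Fgf2, Fgf5, Fgf22, Igfbpl1 and Igf2os. Since the filter asks for reads in only as many libraries as 1 group holds, a gene low in control could pass through RANKL alone, and these shares describe only the tested members. The 2 groups of libraries did not overlap in 42 of 53 tested members, against a background of 70.1% of all genes tested.

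**Figure D1:**
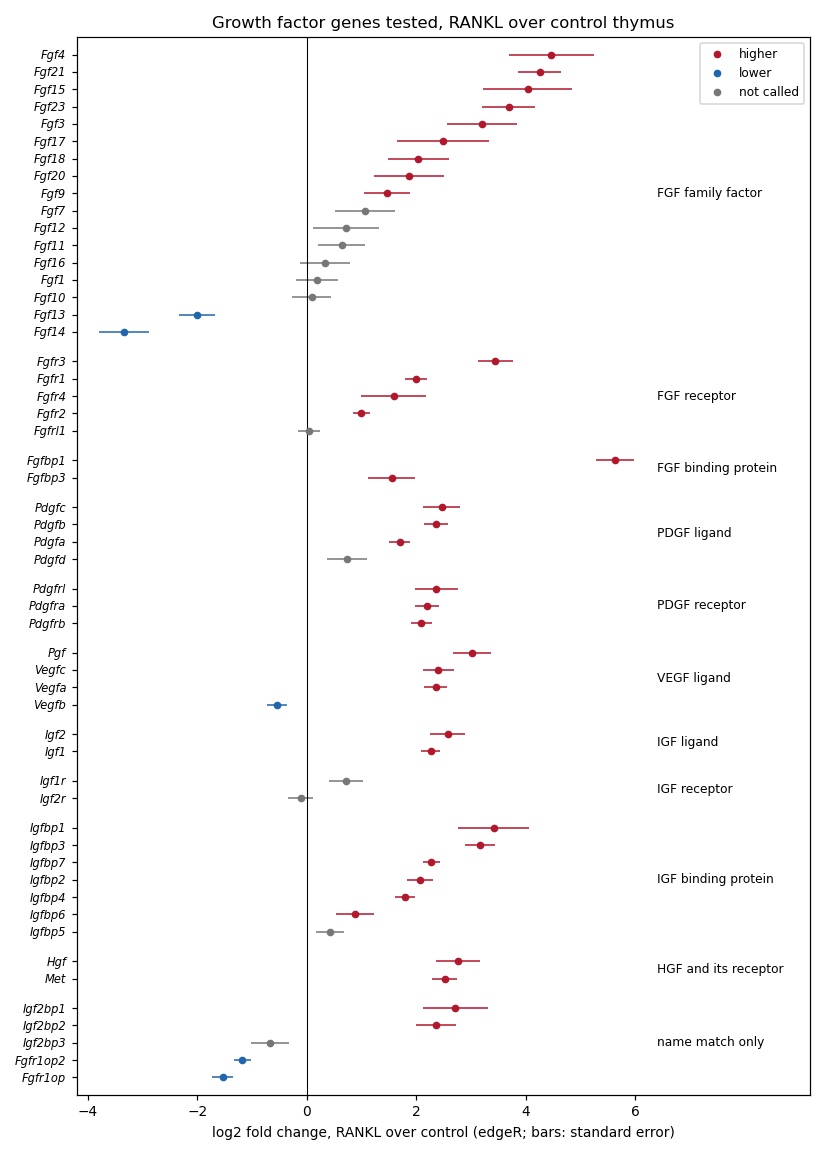
Log2 fold change of each of the 53 tested members, RANKL over control, with standard errors as bars, grouped by role; red marks genes that rose, blue those that fell and grey those not called at an adjusted p of 0.05. Most families sit to the right of 0, with Fgfbp1 highest at 5.63 and Fgf14 lowest at -3.34.

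To show the sequence context of FGF genes that rose, the 250 bases upstream of an annotated start are printed from RefSeq (GRCm38.p6) for the neighbours Fgf3 (chr7:144838362-144838611, plus strand) and Fgf4 (chr7:144861136-144861385, plus strand), for the hormones Fgf21 (chr7:45615491-45615740, minus strand) and Fgf23 (chr6:127072652-127072901, plus strand), and for Fgfbp1 (chr5:43981800-43982049, minus strand), each written 5′ to 3′ on the gene's strand. Capitals mark matches to 5 short motifs searched on both strands: TGANTCA for AP-1, the NF-kB decamer, ACGTG for hypoxia-inducible factors, TGATGNAA for ATF4 and TTCNNNGAA for STAT factors.
Fgf3: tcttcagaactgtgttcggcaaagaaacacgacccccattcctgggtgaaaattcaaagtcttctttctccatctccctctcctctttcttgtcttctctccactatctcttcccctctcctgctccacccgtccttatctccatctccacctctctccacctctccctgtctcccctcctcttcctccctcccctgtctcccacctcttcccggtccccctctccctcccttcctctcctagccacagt
Fgf4: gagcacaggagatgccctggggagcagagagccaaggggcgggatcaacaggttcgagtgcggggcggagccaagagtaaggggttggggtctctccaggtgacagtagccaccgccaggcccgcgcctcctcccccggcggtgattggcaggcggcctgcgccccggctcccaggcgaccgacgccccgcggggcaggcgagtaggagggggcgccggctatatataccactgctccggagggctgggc
Fgf21: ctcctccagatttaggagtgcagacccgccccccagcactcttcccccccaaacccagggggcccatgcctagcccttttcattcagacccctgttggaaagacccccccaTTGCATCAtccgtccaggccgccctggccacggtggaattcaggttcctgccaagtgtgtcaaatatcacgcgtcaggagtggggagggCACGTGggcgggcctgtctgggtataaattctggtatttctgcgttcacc
Fgf23: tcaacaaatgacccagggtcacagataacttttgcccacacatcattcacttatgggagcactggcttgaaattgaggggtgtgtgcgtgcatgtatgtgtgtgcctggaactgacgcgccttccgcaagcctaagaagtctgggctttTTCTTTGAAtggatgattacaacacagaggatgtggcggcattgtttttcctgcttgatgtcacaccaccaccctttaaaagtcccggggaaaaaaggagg
Fgfbp1: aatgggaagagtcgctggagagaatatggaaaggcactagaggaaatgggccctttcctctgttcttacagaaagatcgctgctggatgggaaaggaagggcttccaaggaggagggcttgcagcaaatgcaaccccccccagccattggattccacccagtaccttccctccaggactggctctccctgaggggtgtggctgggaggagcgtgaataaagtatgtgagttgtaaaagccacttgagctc
The Fgf21 window held an ATF4 match that begins 139 bases before the start site and a palindrome at 50 bases that matches the hypoxia motif on both strands. The Fgf23 window held a STAT match at 101 bases, and the Fgf3, Fgf4 and Fgfbp1 windows held none of the 5 motifs. Base composition differed widely among them, with G and C making up 71.2% of the Fgf4 window and 48.4% of the Fgf23 window. Windows were found for 28 of the 36 members that rose. The hypoxia motif was in 9 of these 28 members (32.1%), Vegfa among them, and in 18.5% of 27025 genes with a window. The AP-1 motif was in 3 of 28 (10.7%, against 7.82% of all genes with a window), and ATF4 and STAT matches were in 1 of 28 each (3.57%, against 3.91% and 8.13%). The NF-kB motif was in 0 of 28, and in 0.414% of all genes with a window. A motif this rare cannot tell the 28 members from other genes, and no wider form was searched. These matches are descriptions of letters in a window, not of binding.

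The FGF family was divided by kind. Of 13 tested FGFs that act through receptors, 9 rose and 4 were not called. Of the 4 intracellular FGF homologous factors, which bind sodium channels rather than receptors, 2 fell and 2 were not called. The shares over all genes tested were 33.8% higher and 29.6% lower. Among the FGFs that rose, Fgf3, Fgf4, Fgf15, Fgf17 and Fgf18 had 9 reads or fewer in each control library. They passed the filter on low counts through RANKL libraries, so these counts do not test a difference between the kinds. The 3 hormone FGFs were among the 5 receptor-acting FGFs with the largest increases, with log2 fold changes between 3.69 and 4.26. Fgf21 (chromosome 7, 45613890 to 45615490), a metabolic hormone best known from liver, had 51.0, 29.3 and 58.5 CPM in RANKL libraries, against 3.37, 1.24 and 2.63 CPM in control libraries. The lowest RANKL library was thus well above the highest control. Its log2 fold change was 4.26 ± 0.39 (SE), or 19.1-fold (edgeR adjusted p = 2.21e-05). Fgf23 (chromosome 6, 127072902 to 127082296), the phosphate-regulating hormone of bone, had 16.6, 7.48 and 17.4 CPM in RANKL and 1.69, 0.515 and 1.00 CPM in control, 12.9-fold higher (log2 fold change 3.69 ± 0.48, edgeR adjusted p = 0.00015). Fgf15 (chromosome 7, 144896532 to 144900953), the intestinal hormone that restrains bile acid synthesis, had 5.06, 1.5 and 3.77 CPM in RANKL, against 0.474, 0 and 0.143 CPM in control. For all 3 hormones RANKL replicate 2, the deepest library, was the lowest of the RANKL libraries. That order was not particular to the hormones. RANKL replicate 2 was also lowest for Fgf1, Fgf3, Fgf4 and Fgf17, and it was highest for Fgf7, Fgf9 and Fgf20. The Fgf15 log2 fold change of 4.03 ± 0.82 (edgeR adjusted p = 0.00191) moved to 5.40 without control replicate 1 and to 3.44 without control replicate 2, and stayed called.

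Fgf3 and Fgf4, which lie next to Fgf15 on chromosome 7 (144838612 to 144843348 and 144861386 to 144865245) and are known from embryonic development, rose as well. Fgf4 had 7.16, 2.03 and 5.75 CPM in RANKL and 0.316, 0 and 0.334 CPM in control, a log2 fold change of 4.47 ± 0.78 (edgeR adjusted p = 0.000793), or 3.88 without control replicate 2. Fgf3 had 2.48, 1.18 and 1.23 CPM in RANKL and 0.316, 0.155 and 0.0478 CPM in control, a log2 fold change of 3.20 ± 0.64 (edgeR adjusted p = 0.00173), or 3.92 without control replicate 1. In both genes all control libraries were below all RANKL libraries, but the control values rest on 7 reads or fewer per library, so the size of the change is imprecise.

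Fgf9, an epithelial FGF that signals to mesenchyme, rose more modestly, with 6.62, 7.73 and 4.71 CPM in RANKL and 1.16, 3.50 and 2.20 CPM in control (log2 fold change 1.47 ± 0.42, edgeR adjusted p = 0.0116). Its relative Fgf20 had 2.96, 3.74 and 2.40 CPM in RANKL and 0.264, 1.86 and 0.382 CPM in control. Control replicate 2 stood apart from the other 2 control libraries in Fgf20. The Fgf20 log2 fold change of 1.86 ± 0.64 (edgeR adjusted p = 0.0283) became 3.18 without control replicate 2, and was also 3.18 when the number series in the sample titles entered as a block. It was not called without RANKL replicate 2 (1.68, edgeR adjusted p = 0.0659), control replicate 1 (1.43, 0.073) or control replicate 3 (1.5, 0.102), nor in a test against a 1.5-fold change (0.0575). Fgf17 and Fgf18, of the FGF8 subfamily, averaged 1.39 ± 0.924 and 0.791 ± 0.261 CPM in RANKL and 0.242 ± 0.233 and 0.188 ± 0.0854 CPM in control (SD, n = 3 each). The control libraries held 5, 9 and 0 reads of Fgf17 and 5, 4 and 2 reads of Fgf18. Fgf18 rose by a log2 fold change of 2.04 ± 0.55 (edgeR adjusted p = 0.00938). Fgf17 rose by 2.49 ± 0.84 (edgeR adjusted p = 0.0254), or by 3.34 without control replicate 2 and 3.81 with the title-number block, and its call was lost without RANKL replicate 1 (1.87, edgeR adjusted p = 0.09), control replicate 1 (2.54, 0.0628) or control replicate 3 (1.88, 0.0563).

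The mesenchymal FGFs best known in the thymus were not among the genes that rose. Fgf10 had 2.85, 2.77 and 1.79 CPM in RANKL and 2.69, 2.37 and 1.91 CPM in control, and the groups overlapped (log2 fold change 0.09 ± 0.35, edgeR adjusted p = 0.839). Fgf7, keratinocyte growth factor, had 1.24, 4.27 and 1.98 CPM in RANKL and 0.738, 1.86 and 1.00 CPM in control, with RANKL replicate 1 inside the control range. Its log2 fold change of 1.06 ± 0.54 was not called (edgeR adjusted p = 0.111), became 1.41 without RANKL replicate 1, where it was called (0.048), and was 0.43 without RANKL replicate 2. Fgf1 and Fgf16 were not called either, at 0.18 ± 0.38 and 0.33 ± 0.46. The untested Fgf5 had 8, 5 and 2 reads in RANKL and 0 in every control library, which is at least 4.60-fold higher if the control group is set to a floor of 3 reads in all. Fgf22 had 21 reads in RANKL and 3 in control, 6.45-fold more per read sequenced (95% counting interval 1.92 to 33.8), and Fgf2 stayed between 0.0527 and 0.529 CPM in all libraries.

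Among the intracellular homologous factors, Fgf14 (chromosome 14, 123974441 to 124677686) fell to 1.35, 0.813 and 2.92 CPM in RANKL libraries, against 21.8, 17.9 and 11.7 CPM in control libraries. That was 10.1-fold lower, a log2 fold change of -3.34 ± 0.46 (edgeR adjusted p = 0.000202), or -3.96 without RANKL replicate 3. Fgf13, on the X chromosome, fell to 7.64, 3.29 and 6.79 CPM in RANKL, against 28.7, 18.3 and 24.2 CPM in control (log2 fold change -2.01 ± 0.33, edgeR adjusted p = 0.000565). The groups did not overlap in either gene, and both fell less than the median double-positive thymocyte marker, at -4.35. Both lay within the range of the 12 markers on that list, which ran from -5.21 to -1.54. Fgf11 and Fgf12 were not called, at 0.64 ± 0.43 and 0.71 ± 0.61.

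**Figure D2:**
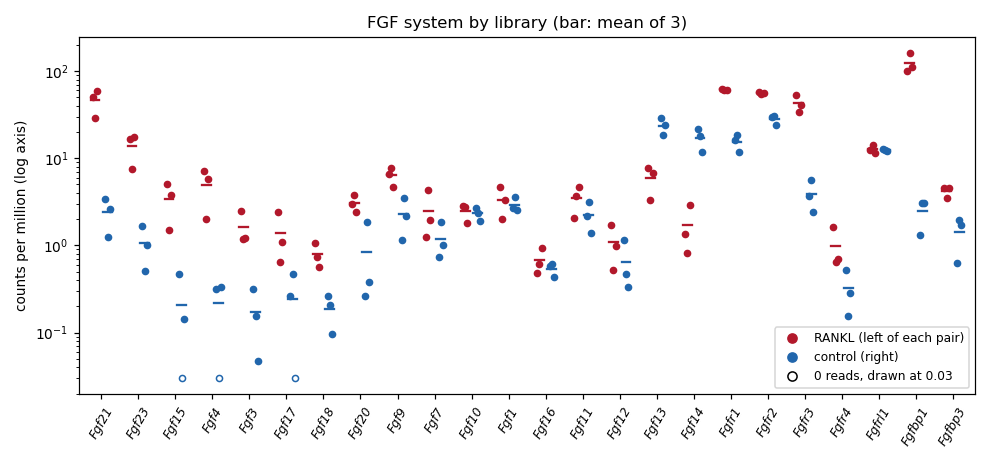
Expression of the FGF family, its receptors and its binding proteins in each library, as CPM on a log axis, with RANKL libraries in red left of control libraries in blue and short bars for the mean of 3; open points are libraries with 0 reads. Fgf21, Fgf23, Fgf15, Fgf4, Fgf3, Fgfr3 and Fgfbp1 show no overlap with RANKL above control, Fgf13 and Fgf14 no overlap with RANKL below, and Fgf10, Fgf1 and Fgfrl1 overlap.

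Of 5 FGF receptor genes 4 rose, against 33.8% of all genes tested. Fgfr3 (chromosome 5, 33721724 to 33737068), a receptor of epithelium and cartilage, had 53.1, 33.5 and 40.9 CPM in RANKL and 3.69, 5.62 and 2.39 CPM in control, 10.9-fold higher (log2 fold change 3.45 ± 0.33, edgeR adjusted p = 2.47e-05). Fgfr1, the main mesenchymal receptor, rose 3.98-fold, averaging 61.7 ± 1.04 CPM in RANKL and 15.5 ± 3.41 CPM in control. Fgfr2, whose epithelial splice form receives Fgf7 and Fgf10, rose 2.00-fold, averaging 56.1 ± 1.44 CPM in RANKL and 28.1 ± 3.29 CPM in control (SD, n = 3 each), and counts per gene do not separate its splice forms. Scaled to exon length, Fgfr3 made up 32.9% ± 4.42 of the 4 signalling receptors' transcripts in RANKL and 10.8% ± 2.85 in control, and Fgfr2 30.5% ± 2.18 in RANKL and 55.6% ± 3.66 in control (SD, n = 3 each). The low-level Fgfr4 was 3.01-fold higher (edgeR adjusted p = 0.0396), a call lost without RANKL replicate 1 (0.156), control replicate 2 (0.132) or control replicate 3 (0.111), with DESeq2 (adjusted p = 0.0648) and in a test against a 1.5-fold change (0.0844). Fgfrl1, a receptor-like protein without a kinase, was not called, at 12.8 ± 1.40 CPM in RANKL and 12.4 ± 0.419 CPM in control.

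The largest increase of any tested member was in Fgfbp1 (chromosome 5, 43978858 to 43981828), a secreted carrier that frees FGFs from heparan sulphate and is known from skin and other squamous epithelium. It had 101, 159 and 112 CPM in RANKL libraries and 1.32, 3.04 and 3.11 CPM in control libraries. The groups were far apart, with a log2 fold change of 5.63 ± 0.34, or 49.6-fold (edgeR adjusted p = 4.55e-06). Markers of cornified keratinocytes moved the same way, with all 9 genes of that list higher and a median log2 fold change of 4.71. That was not particular to this list. All tested neutrophil, medullary and basal epithelial, and macrophage markers rose too, with medians of 6.46, 3.33 and 1.80. All double-positive thymocyte and cortical epithelial markers fell. Which cells the Fgfbp1 reads came from was not tested. Fgfbp3 rose too, with 4.58, 3.54 and 4.57 CPM in RANKL and 0.633, 1.96 and 1.72 CPM in control (log2 fold change 1.55 ± 0.43).

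The FGF partners outside the naming rule formed a list of co-receptors, adaptors, FLRT membrane proteins, feedback inhibitors and transcription factors. Of 18 tested, 11 rose and 1 fell, with a median log2 fold change of 1.21. Over all genes tested 33.8% rose and 29.6% fell, with a median of -0.02. This list and the partner lists below were chosen with earlier results of these data known. The feedback inhibitors Spry1, Spry2 and Spry4 rose by 1.5 ± 0.25, 1.61 ± 0.22 and 1.94 ± 0.30, and the phosphatase Dusp6 by 0.93 ± 0.21. Spred1, on the same list, rose by 0.53 ± 0.15, while Spred2 and Spred3 were not called, at -0.30 ± 0.31 and 0.93 ± 0.45. The ETS transcription factors Etv1, Etv4 and Etv5, which FGF signalling can induce, rose by 1.95 ± 0.36, 4.04 ± 0.47 and 1.10 ± 0.23. Frs2, the adaptor that couples FGF receptors to the RAS pathway, fell to 36.5 CPM in RANKL, against 73.5 CPM in control (log2 fold change -1.01 ± 0.24). Frs3, on the same list, was not called, at 0.37 ± 0.41. The co-receptors of the hormone FGFs, picked out after their values were seen, were not called: Klb was at 1.74 CPM in RANKL and 1.55 CPM in control, and Kl at 0.706 and 0.226 CPM in the same order of groups (log2 fold changes 0.16 ± 0.40 and 1.64 ± 0.81). Several of these genes also answer to other receptor tyrosine kinases.

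Of the PDGF ligands, Pdgfa, Pdgfb and Pdgfc rose and Pdgfd was not called. Pdgfb (chromosome 15, 79995865 to 80024614), which draws pericytes to vessels, had 60.2, 44.3 and 51.5 CPM in RANKL libraries and 11.9, 7.94 and 10.4 CPM in control libraries, 5.15-fold higher (log2 fold change 2.36 ± 0.21, edgeR adjusted p = 2e-05). Pdgfc, a ligand that must be cleaved to act, had 41.4, 51.6 and 26.8 CPM in RANKL and 5.38, 10.8 and 5.54 CPM in control, 5.53-fold higher (edgeR adjusted p = 0.000193). Pdgfa had 28.5, 26.1 and 29.5 CPM in RANKL and 9.33, 9.12 and 7.5 CPM in control, 3.24-fold higher. RANKL and control libraries of these 3 genes did not overlap. Pdgfd had 3.98, 2.36 and 2.26 CPM in RANKL and 1.85, 1.70 and 1.58 CPM in control, also without overlap, but its log2 fold change of 0.74 ± 0.37 did not pass (edgeR adjusted p = 0.103).

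The receptors rose to a similar degree. Pdgfra, a fibroblast receptor, had 65.7, 61.9 and 48.6 CPM in RANKL and 14.9, 13.9 and 9.51 CPM in control (log2 fold change 2.20 ± 0.22, edgeR adjusted p = 3.37e-05). Pdgfrb, the receptor of pericytes and fibroblasts, had 114, 128 and 94.6 CPM in RANKL and 30.2, 28.1 and 20.5 CPM in control (2.10 ± 0.20, edgeR adjusted p = 2.59e-05). In both receptors RANKL replicate 3 was the lowest of its group, as it was in the fibroblast marker sum. The same library was lowest in the pericyte and smooth muscle, lymphatic, macrophage and adipocyte sums. Pdgfra was highest in RANKL replicate 1, whereas Pdgfrb and the fibroblast sum were highest in RANKL replicate 2. The median log2 fold change was 1.90 over 12 fibroblast markers and 0.75 over 10 pericyte and smooth muscle markers, where 4 genes were not called. Pdgfrl, a receptor-like gene, rose 5.16-fold, with RANKL replicate 1 highest at 30.6 CPM and control at 2.74 to 5.98 CPM. Of the PDGF partners 5 of 6 tested rose, against 33.8% of all genes tested. That list also holds receptors of other ligands, of which Csf1r and Kit rose, by 1.80 ± 0.21 and 0.63 ± 0.20. Flt3, another of these receptors, was not called, at 0.29 ± 0.27. Csf1r is on the macrophage marker list as well. Plat, the protease that activates PDGF-C, rose to 157 CPM in RANKL, against 10.8 CPM in control (log2 fold change 3.86 ± 0.25), Plau, which can activate PDGF-D, by 3.53 ± 0.39 and Furin, which processes PDGF-A and PDGF-B, by 2.14 ± 0.23.

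**Figure D3:**
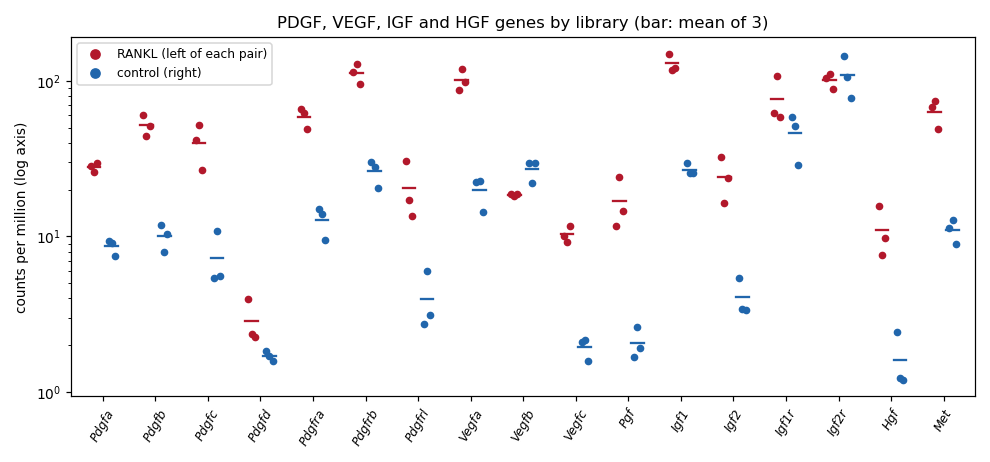
Expression of the PDGF, VEGF, IGF and HGF ligands and receptors in each library, as CPM on a log axis, with RANKL libraries in red left of control libraries in blue and short bars for the mean of 3. RANKL libraries lie above control libraries in every gene shown except Vegfb, where they lie below, and Igf1r and Igf2r, where the groups overlap.

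Of the 4 VEGF ligands 3 rose and 1 fell, against 33.8% and 29.6% of all genes tested. Vegfa (chromosome 17, 46016993 to 46032377), the main angiogenic ligand and a hypoxia-responsive gene, had 87.1, 118 and 97.5 CPM in RANKL libraries and 22.3, 22.6 and 14.4 CPM in control libraries, 5.11-fold higher (log2 fold change 2.35 ± 0.22, edgeR adjusted p = 2.27e-05). Pgf, placental growth factor, which binds Flt1, had 11.6, 24.2 and 14.5 CPM in RANKL and 1.69, 2.63 and 1.91 CPM in control, 8.07-fold higher (edgeR adjusted p = 7.47e-05). Vegfc, the lymphatic ligand, had 10.1, 9.19 and 11.7 CPM in RANKL and 2.11, 2.16 and 1.58 CPM in control, 5.30-fold higher. Vegfb, which in heart and fat is linked to lipid handling, had 18.6, 18.2 and 18.6 CPM in RANKL and 29.6, 22.1 and 29.4 CPM in control. The 3 RANKL values of Vegfb were almost the same and lay below every control, and the change was small, a log2 fold change of -0.55 ± 0.19 (edgeR adjusted p = 0.0259). The Vegfb call was lost when any library other than control replicate 2 was left out, with edgeR adjusted p between 0.0569 and 0.0855, and in a test against a 1.5-fold change (0.47).

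Among VEGF partners 15 of 23 tested rose and 1 fell, with a median of 1.36. The shares over all genes tested were 33.8% higher and 29.6% lower. The receptors Flt1, Kdr and Flt4 rose by log2 fold changes of 2.61 ± 0.36, 1.23 ± 0.31 and 2.37 ± 0.28, and the co-receptor Nrp2 by 2.32 ± 0.23, while Nrp1 was not called, at 0.34 ± 0.20. The table lists VEGF-D under its older symbol Figf, which rose by 1.61 ± 0.48. Kdr, the main signalling receptor of blood endothelium, averaged 26.9 CPM in RANKL and 11.5 CPM in control, and the median log2 fold change over 10 blood endothelial markers was 0.90. Flt4, the lymphatic receptor, averaged 17.2 CPM in RANKL and 3.31 CPM in control, and the median over 5 tested lymphatic markers was 2.46. These markers include Pdpn (2.60), which is also on the fibroblast list. Lyve1, Mmrn1 and Prox1 rose by 2.74, 2.46 and 1.28, and Reln was not called, at 0.67. Angpt2, which loosens vessel walls, rose by 2.76 ± 0.32, whereas Angpt1, which stabilises them, fell to 6.80 CPM in RANKL, against 12.2 CPM in control (-0.85 ± 0.26). The hypoxia-inducible factor subunits Hif1a and Epas1 rose by 1.36 ± 0.23 and 0.96 ± 0.18, and the hypoxia target Egln3 by 2.49 ± 0.19. On the same list Arnt, the partner subunit of these factors, Egln1, a prolyl hydroxylase that marks them for breakdown, and Vhl, which completes it, were not called, with log2 fold changes of -0.30 ± 0.15, -0.39 ± 0.17 and -0.39 ± 0.16, although RANKL libraries lay below control libraries in each. The anti-angiogenic matrix proteins Thbs1 and Thbs2 rose by 3.84 ± 0.45 and 2.57 ± 0.28.

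Both IGF ligands rose and neither IGF receptor was called. Igf1 (chromosome 10, 87858265 to 87937047), made by macrophages and mesenchyme among other cells, had 149, 117 and 121 CPM in RANKL libraries and 29.6, 25.6 and 25.5 CPM in control libraries, 4.80-fold higher (log2 fold change 2.26 ± 0.17, edgeR adjusted p = 8.93e-06). The libraries of each group were close together and the groups far apart. Igf2, the imprinted fetal ligand, had 32.2, 16.4 and 23.9 CPM in RANKL and 5.43, 3.40 and 3.34 CPM in control, 5.95-fold higher (edgeR adjusted p = 0.000108). Igf2os lies on the opposite strand and overlaps Igf2, and since the strand setting of the counting is not given in the sources used here, their reads cannot be told apart with certainty. Igf1r, the signalling receptor, had 61.8, 107 and 58.4 CPM in RANKL and 58.5, 51.2 and 28.7 CPM in control, with overlap between RANKL replicate 3 and control replicate 1. Its log2 fold change was 0.72 ± 0.30 (edgeR adjusted p = 0.0621), and it was called when RANKL replicate 1 (0.0355), RANKL replicate 3 (0.0285) or the first control library (0.0465) was left out. Igf2r, which clears IGF2, averaged 101.4 ± 11.1 CPM in RANKL and 109.6 ± 33.7 CPM in control (SD, n = 3 each), and the insulin receptor Insr was not called, at 0.03 ± 0.24.

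Of the 7 IGF-binding proteins 6 rose, against 33.8% of all genes tested, and Igfbp5 was not called. Igfbp3, the main carrier in blood and also a keratinocyte product, had 162, 218 and 99.9 CPM in RANKL and 16.8, 19.4 and 17.5 CPM in control, 8.93-fold higher (log2 fold change 3.16 ± 0.27, edgeR adjusted p = 1.66e-05). Igfbp7, a matrix and vessel protein with weak IGF binding, had 398, 336 and 347 CPM in RANKL and 68.3, 78.7 and 75.6 CPM in control, 4.85-fold higher (edgeR adjusted p = 7.3e-06). Igfbp4, an inhibitor of IGF action, had 506, 596 and 414 CPM in RANKL and 139, 139 and 159 CPM in control, 3.48-fold higher. Igfbp2 rose 4.2-fold, averaging 22.5 ± 2.96 CPM in RANKL and 5.36 ± 0.862 CPM in control. Igfbp1 rose too, but on few reads, with 22, 13 and 25 reads in RANKL libraries and 1, 1 and 3 in control libraries (log2 fold change 3.42 ± 0.65, or 4.03 without control replicate 3).

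Igfbp6, which prefers IGF2, had 44.5, 14.4 and 27.7 CPM in RANKL and 14.3, 14.9 and 17.5 CPM in control, so that RANKL replicate 2 lay within the control range. Its log2 fold change of 0.89 ± 0.35 just passed (edgeR adjusted p = 0.0465) and was not called with any library other than RANKL replicate 2 left out (edgeR adjusted p between 0.0628 and 0.211), with no low-count filter (0.0639), with the title-number block (0.114) or in a test against a 1.5-fold change (0.165). Igfbp5 had 301, 151 and 225 CPM in RANKL and 209, 155 and 141 CPM in control, with overlap (0.43 ± 0.26, edgeR adjusted p = 0.171), and it was called without RANKL replicate 2 (0.66, edgeR adjusted p = 0.0235). Both genes were lowest in RANKL replicate 2 among RANKL libraries, the library in which Igfbp3 and the cornified keratinocyte marker sum were highest. On that marker list Krt10 was lowest there. The sums of fibroblast, pericyte and smooth muscle, blood and lymphatic endothelial, medullary and basal epithelial, macrophage and neutrophil markers were also highest in RANKL replicate 2. Those of cortical epithelial, parathyroid, skeletal muscle and B cell markers were lowest there.

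Scaled to exon length, the makeup of the binding proteins shifted. Igfbp7 held 55.3% ± 3.18 of the summed CPM per kilobase of the 7 genes in RANKL and 42.3% ± 2.96 in control, and Igfbp3 9.42% ± 3.36 in RANKL and 3.95% ± 0.301 in control (SD, n = 3 each). Igfbp5 held 6.93% ± 1.94 in RANKL and 19.3% ± 4.23 in control, and Igfbp6 4.74% ± 2.15 in RANKL and 9.64% ± 0.966 in control. Neither of these shares overlapped between groups, in contrast to Igfbp4, which held 21.2% ± 3.59 in RANKL and 22.7% ± 1.60 in control. Per kilobase Igfbp7 was the most abundant of the 58 members in both groups, at 298 ± 27.6 CPM per kilobase in RANKL and 61.4 ± 4.39 in control. Fgf21 ranked 5 of 58 in RANKL and 20 of 58 in control on that scale, at 48.7 ± 15.9 and 2.54 ± 1.14 CPM per kilobase.

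**Figure D4:**
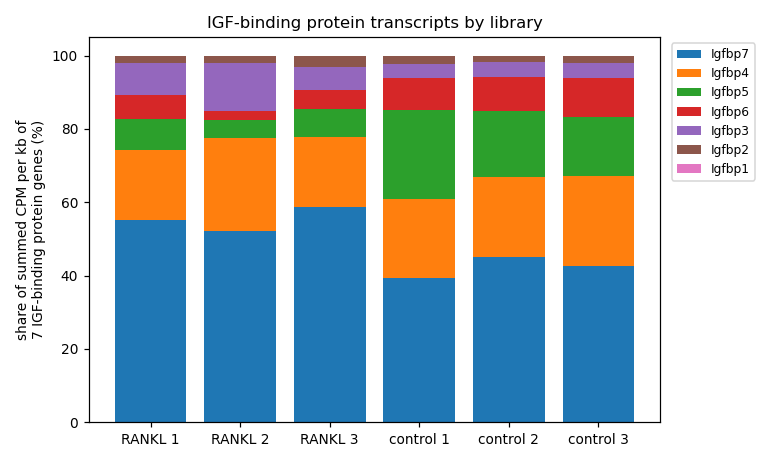
Share of each of the 7 IGF-binding protein genes in their summed CPM per kilobase of exon, one bar per library, with RANKL libraries left of control libraries. The Igfbp7 and Igfbp3 segments are larger and the Igfbp5 and Igfbp6 segments smaller in all 3 RANKL libraries than in any control library.

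IGF partners rose in 10 of 15 tested and none was called lower, with a median of 1.99. The shares over all genes tested were 33.8% higher and 29.6% lower. Pappa and Pappa2, proteases that release IGF from its binding proteins, rose by log2 fold changes of 4.06 ± 0.71 and 4.40 ± 0.42, to 13.9 and 19.6 CPM in RANKL, against 0.832 and 0.929 CPM in control. Stc1, a stanniocalcin that can inhibit these proteases, rose by 3.42 ± 0.29, whereas Stc2, its relative with the same activity, was not called, at -0.60 ± 0.28, with RANKL libraries below control libraries. Igfals, the acid-labile subunit of the circulating IGF complex, rose by 2.95 ± 0.41, the receptor substrate Irs1 by 1.99 ± 0.30 and the adaptor Grb10 by 2.02 ± 0.21. Irs2 and Grb14, also on that list, were not called, at 0.31 ± 0.39 and 0.57 ± 0.32. H19, the imprinted RNA next to Igf2, rose by 1.32 ± 0.27.

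Hgf and Met both rose, as did genes that activate HGF. Hgf (chromosome 5, 16553495 to 16619439), a product of mesenchymal and myeloid cells, had 15.7, 7.60 and 9.80 CPM in RANKL libraries and 2.43, 1.24 and 1.19 CPM in control libraries, 6.81-fold higher (log2 fold change 2.77 ± 0.40, edgeR adjusted p = 0.00029). Met (chromosome 6, 17463349 to 17573980), its epithelial receptor, had 67.8, 73.6 and 48.6 CPM in RANKL and 11.4, 12.8 and 8.98 CPM in control, 5.73-fold higher (2.52 ± 0.22, edgeR adjusted p = 1.77e-05). RANKL replicate 1 was highest in Hgf and RANKL replicate 2 in Met. Against 33.8% of all genes tested, all 9 HGF partners tested rose, with a median of 2.24. Among them St14, the epithelial protease matriptase that cleaves HGF to its active form, rose to 347 CPM in RANKL, against 23.3 CPM in control (3.89 ± 0.29), its inhibitor Spint1 by 2.32 ± 0.27, and Mst1r, the related receptor RON, by 2.50 ± 0.29.

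Over all partner lists together, 50 of 71 tested genes rose (70.4%) and 2 fell, with a median log2 fold change of 1.61. Over all genes tested 33.8% rose and 29.6% fell, with a median of -0.02. Since the lists were chosen with earlier results of these data known, the partner counts describe only the listed genes. The number of partner genes that fell was 1 without RANKL replicate 2 or RANKL replicate 3, 5 without control replicate 2 and 4 without control replicate 3.

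Ratios of ligand to receptor reads within a library need no scaling between libraries. With 3 libraries a group the exact two-sided permutation test cannot give a p below 0.1, so none of the 8 ratios could pass, and after adjustment over the 8 the smallest value was 0.2. The log2 ratio of Igf1 to Igf1r reads was 1.27, 0.12 and 1.05 in RANKL and -0.98, -1.0 and -0.17 in control, a difference of 1.53 without overlap (exact permutation p = 0.1). The ratio of Vegfa to Kdr was 1.11 higher in RANKL and also did not overlap. Kdr had the smallest log2 fold change of the VEGF receptors, 1.23, against 2.61 for Flt1 and 2.37 for Flt4. No ratio of Vegfa to Flt1 was taken. Fgf10 to Fgfr2 and Pdgfa to Pdgfra were lower in RANKL without overlap, by differences of -0.94 and -0.51. For Pdgfb to Pdgfrb, Vegfc to Flt4, Hgf to Met and Fgf7 to Fgfr2 the groups overlapped, with differences of 0.27, 0.05, 0.25 and -0.05.

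**Figure D5:**
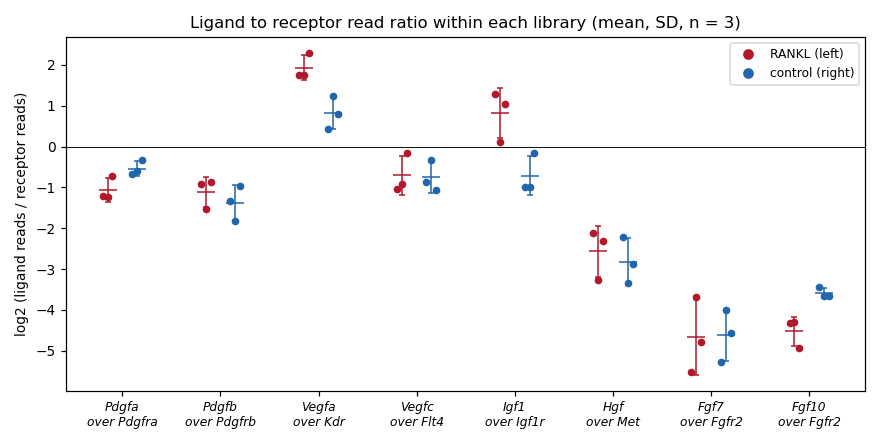
Log2 ratio of ligand reads to receptor reads in each library for 8 pairs, with 0.5 added to each count, RANKL libraries in red left of control libraries in blue, and the mean and SD of 3. The groups are apart for Igf1 over Igf1r, Vegfa over Kdr, Fgf10 over Fgfr2 and Pdgfa over Pdgfra, and overlap for the other pairs.

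The name rule also took in genes that belong to these systems by name alone. Fgfr1op and Fgfr1op2, first named as fusion partners of Fgfr1, fell to 22.4 ± 5.15 and 79.7 ± 6.98 CPM in RANKL, against 65.1 ± 4.73 and 180.2 ± 11.04 CPM in control (SD, n = 3 each; log2 fold changes -1.54 ± 0.20 and -1.18 ± 0.15). They make up 2 of the 5 members that fell, beside Fgf13, Fgf14 and Vegfb. The RNA-binding proteins Igf2bp1 and Igf2bp2 rose by 2.72 ± 0.60 and 2.37 ± 0.36, with Igf2bp2 highest in RANKL replicate 2 at 34.5 CPM, and Igf2bp3 was not called at -0.67 ± 0.35. Without such genes 34 of 48 tested members rose and 3 fell, against 33.8% and 29.6% of all genes tested. Igfbpl1 and Igf2os were too low to test, at 0.694 and 0.530 CPM in RANKL and 0.0858 and 0.119 CPM in control.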

How the data were processed

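The deposited file gives unnormalised counts per gene, which are whole numbers, for each library. Alignment with STAR to mm10 is named in the submitters' processing notes, and stranded mRNA libraries from 250 ng of total RNA per the labels' protocols. How reads were counted, with which strand setting and gene models, is not given in the sources used here. Genes passing filterByExpr received TMM factors and entered edgeR 4.0.16 (R 4.3.3), with glmQLFit in robust mode, glmQLFTest, both directions and group as the only term. Errors of log2 fold changes are derived from the F statistic. The procedure was tested on simulated data. Coordinates came from RefSeq and exon lengths from GENCODE M21, both GRCm38, and all 58 members matched. Members, partner lists and marker lists were chosen with earlier results of these data known. Every tested member could be named, and of the partners those called plus the VEGF receptors, co-receptors and Insr. Outside that rule Arnt, Egln1, Vhl, Stc2, Kl, Klb, Flt3, Frs3, Spred2, Spred3, Irs2 and Grb14, which were not called, were also named. Other partners that were not called were left unnamed. Alternatives were RLE factors, library totals, 2 other filters, DESeq2 1.42.0, a block for the number series in the sample titles, a test against a 1.5-fold change and each library left out. Within groups, libraries were further apart than sampling noise allows (chi-square per degree of freedom 33.7 to 72.0), so all were kept as separate. Replicate numbers follow accession order. No label says that libraries are from separate animals, so p-values measure only the spread between these samples. Intervals and read floors reflect counting error alone. Figures were drawn with matplotlib 3.10.9.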

Additional observations from a re-analysis of the deposited data

How the results depend on the processing

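No paired analysis was possible because the labels give no replicate numbers shared between groups. A block for the number series in the sample titles, which leaves control replicate 2 alone in its series, gave 35 members higher and 5 lower. RLE factors and library totals changed no member's call, and with them 36 members rose and 5 fell. The count of members that rose ran from 31 to 39 over all alternatives and that of members that fell from 4 to 5. Among all genes, a test against a 1.5-fold change gave 2654 lower instead of 4765. Partner genes called lower numbered 5 with no low-count filter, 4 with the title-number block and 1 in the test against a 1.5-fold change, and 1 to 5 with a library left out; the cause was not tested. Of the refits of single members 646 kept direction and side of the threshold, 26 lost a call and 5 gained one. The other 6 turned sign, all in members that were not called. With a library left out, log2 fold changes ran from -0.10 to 0.45 for Fgf1, -0.050 to 0.31 for Fgf10, -0.036 to 0.15 for Fgfrl1 and -0.32 to 0.12 for Igf2r, and Fgfrl1 was at -0.046 with no filter. Differences in log2 ratio ran from -0.23 to 0.26 for Vegfc to Flt4, -0.0097 to 0.61 for Hgf to Met and -0.54 to 0.38 for Fgf7 to Fgfr2. In single libraries 3 reads correspond to 0.118 to 0.164 CPM. Some control values of Fgf3, Fgf4, Fgf15, Fgf17, Fgf18, Fgfr4, Igfbp1 and Igf2bp1 were near or below that level. The size of the change in those genes is therefore imprecise.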

Other observations

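The Fgf3, Fgf4 and Fgf15 genes are neighbours on chromosome 7, and other protein-coding genes within 200 kilobases did not all share their direction. Ccnd1, a cyclin of the early cell cycle, rose by a log2 fold change of 2.13 (edgeR adjusted p = 1.54e-05) and Ano1, a chloride channel, by 1.38 (0.000846), while LTO1 was not called, at -0.38. Around Fgf23 on chromosome 6, Ccnd2 was not called (0.61, edgeR adjusted p = 0.128) and Rad51ap1, a DNA repair gene, fell (log2 fold change -2.00). Adipocyte markers, which would come with fat around the thymus, summed to 760 to 992 CPM in RANKL and 717 to 1491 CPM in control, and of 8 genes 2 fell and 6 were not called.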
